A study of Mus musculus with 9 samples.

Results

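The genes described are 10 transporters that carry bile acids and organic anions across the membranes of the liver cell. They were chosen by symbol, as given in the count tables, from 23337 genes. Abcb11 and Abcc2 export into bile across the canalicular membrane. Abcc3, Abcc4 and the pair Osta and Ostb (now Slc51a and Slc51b) export across the basolateral membrane into blood. Slc10a1, Slco1b2, Slco1a1 and Slco1a4 take up solutes from blood. RNA was sequenced from 9 livers of wild-type mice, 3 on each diet, collected fed after 12 weeks on a diet begun at 8 weeks of age. The diets were a normal diet (ND), a 60% high-fat diet (HFD), and that high-fat diet with 0.25% hyodeoxycholic acid (HFD_HDCA), a secondary bile acid. The labels give no strain, sex, cage or day, and each library is labelled as a separate sample, so p-values measure the spread between these samples.

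Bile acids are made from cholesterol in hepatocytes, conjugated, secreted into bile and largely reabsorbed in the ileum, and they return to the liver in portal blood. Slc10a1 encodes NTCP, the sodium-dependent carrier that takes conjugated bile acids back into the hepatocyte, and the Slco genes encode OATP carriers of wider substrate range that work without sodium. Abcb11 encodes the bile salt export pump BSEP, whose step is rate limiting for bile salt secretion, and its gene is a classic target of the bile acid receptor FXR. Abcc2 encodes MRP2, which exports conjugated bilirubin and glutathione conjugates into bile. MRP3, MRP4 and the OSTα-OSTβ heterodimer are the basolateral export routes, which are known to be induced in cholestasis.

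Reads on genes numbered 16994353 to 20509203 per library, so that 3 reads, the limit that a count of 0 allows, equalled 0.152 to 0.182 CPM, reads scaled to the library's reads on genes and its TMM factor. This limit covers counting error only, since the reads carry no molecular identifiers. Several libraries were unlike their groups. In HFD 1 the clock output gene Dbp was at 85.8 CPM, and in HFD 2 and HFD 3 at 2.27 and 1.41. Library 1 was also the highest for Dbp in ND (14.6 against 3.58 and 0.752 CPM) and in HFD_HDCA (10.5 against 2.79 and 3.01 CPM). The clock gene Arntl was lowest in library 1 of each diet, at 17.3, 4.71 and 25.3 CPM in ND, HFD and HFD_HDCA. HFD_HDCA 1 held the acute phase genes at a summed 33355 CPM against 12287 to 15027 in the other libraries, and Saa1 alone was at 3371 CPM where HFD_HDCA 2 and HFD_HDCA 3 had 23.4 and 38.0. The tissue label was checked with marker genes. The 8 hepatocyte markers summed to 81142 to 89166 CPM in ND, 98290 to 117077 in HFD and 100842 to 115732 in HFD_HDCA. In HFD_HDCA against ND 0 of the 8 rose and 2 fell, where 3.65% of all genes tested rose and 2.82% fell. Tat fell from 2540 to 759 CPM and Cps1 from 3237 to 1500 CPM (edgeR adjusted p = 0.0146 and 0.00619). The log2 fold change was positive for 5 of the 8 and negative for 3. Alb was at 64744 CPM in ND and 84070 in HFD_HDCA (edgeR adjusted p = 0.139). The part of these markers in the transporter values was not tested. The 10 cholangiocyte markers, genes of the bile duct cells that express some of the same transporters, summed to 95.3 to 165 CPM, and 0 of the 7 tested passed in any comparison. The HFD libraries differed in other cell types. The 8 macrophage markers summed to 459, 133 and 891 CPM in HFD 1, HFD 2 and HFD 3, against 332 to 666 in the ND and HFD_HDCA libraries, with Marco at 4.12, 2.68 and 228 CPM. The 8 endothelial markers summed to 194 CPM in HFD 2 and 319 to 374 in the other libraries. The fall of Abcb11 against HFD was -0.95 on the log2 scale without HFD 2 and -0.99 without HFD 3 (edgeR adjusted p = 0.0262 and 0.0265). Of 7 markers of intestine, kidney and pancreas, 5 or 6 were at 0 in each library.

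Of the 10 transporters, 8 passed the low-count filter and were tested. Abcb11 was the transporter whose level passed the test, and it fell with HDCA. Against HFD, 1 of 8 transporters fell and 0 rose, where 3.40% of the 12587 genes tested passed edgeR's quasi-likelihood test with Benjamini-Hochberg adjustment, 1.67% higher and 1.73% lower. Against ND, 1 of 8 fell in HFD_HDCA and 0 rose, where 6.47% of all genes passed, 3.65% higher and 2.82% lower. Between HFD and ND, 0 of 8 passed, where 0.953% of all genes did, 0.477% in each direction. In that comparison the unadjusted p of 4 transporters was under 0.05, 1 higher and 3 lower, where 11.5% of all genes had such a p, and DESeq2 called 1, Slc10a1. Such a p was found for 2 transporters and 22.0% of all genes in HFD_HDCA against HFD, and for 4 transporters and 26.1% of all genes in HFD_HDCA against ND. The libraries of the diets did not overlap for 3 of 8 transporters in HFD against ND, where this held for 20.1% of all genes. They did not overlap for 2 of 8 in HFD_HDCA against HFD, where the share was 22.4%, and for 4 of 8 in HFD_HDCA against ND, where it was 33.9%. The median log2 fold change of the 8 was -0.35 for HFD against ND, 0.01 for HFD_HDCA against HFD and -0.28 for HFD_HDCA against ND. Over all genes tested it was 0.02, -0.00 and 0.03 in the same order. HFD_HDCA against HFD and HFD against ND share the HFD libraries, and each pair of the 3 comparisons shares a diet group.

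**Figure D1:**
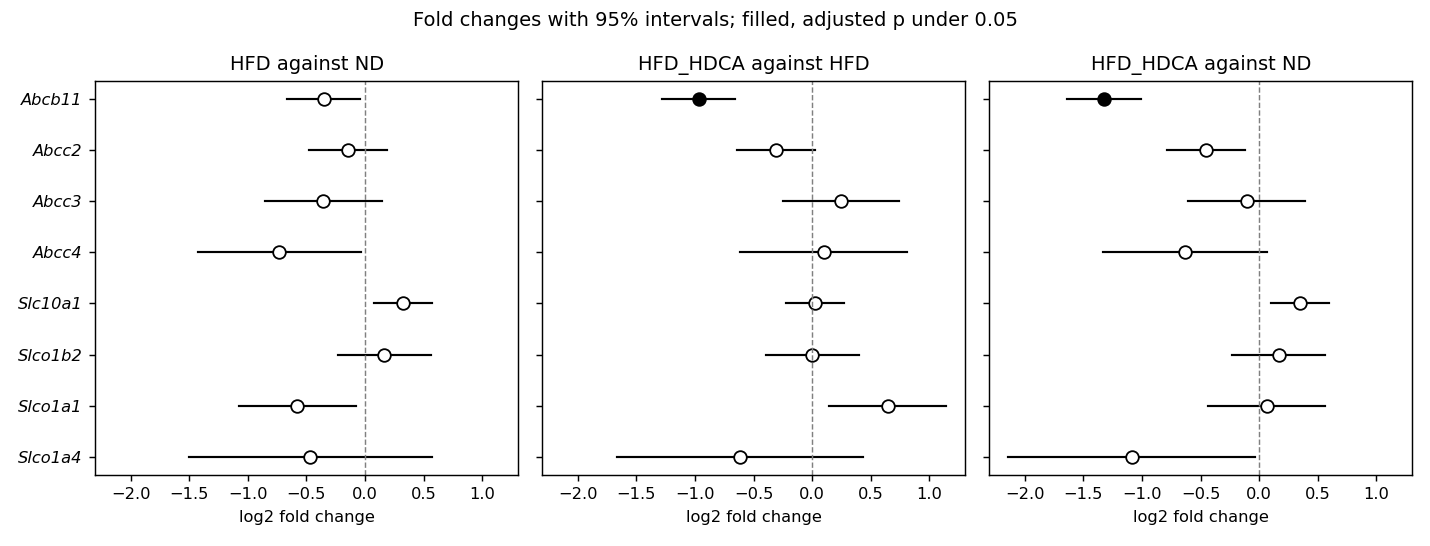
Log2 fold change (x axis) of the 8 tested transporters in the 3 comparisons, with 95% intervals from the edgeR fit of 3 libraries per diet. The filled points, Abcb11 at -0.97 against HFD and -1.32 against ND, are those with an adjusted p under 0.05.

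Abcb11 lies on chromosome 2 from 69238282 to 69342616 on the minus strand of GRCm38.p6. Its RefSeq promoter window and that of Slco1b2 are shown because they were the members whose window held a relaxed form of the inverted repeat that FXR binds, a site and its mirror image separated by a single base. Slco1b2 lies on the same assembly on chromosome 6 from 141629452 to 141686646 on the plus strand. Both windows run 5′ to 3′ on the strand of the gene, and capitals mark the match to GGNCANTGNCC, a palindrome that reads alike on both strands. Abcb11 is chr2:69342567-69342866 (-) and Slco1b2 is chr6:141629268-141629567 (+).
Abcb11: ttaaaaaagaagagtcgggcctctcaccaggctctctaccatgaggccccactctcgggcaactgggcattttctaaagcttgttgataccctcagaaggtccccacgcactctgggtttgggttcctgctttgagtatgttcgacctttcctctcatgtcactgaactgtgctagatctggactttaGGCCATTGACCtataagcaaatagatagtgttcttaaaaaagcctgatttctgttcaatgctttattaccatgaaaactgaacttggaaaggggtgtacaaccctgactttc
Slco1b2: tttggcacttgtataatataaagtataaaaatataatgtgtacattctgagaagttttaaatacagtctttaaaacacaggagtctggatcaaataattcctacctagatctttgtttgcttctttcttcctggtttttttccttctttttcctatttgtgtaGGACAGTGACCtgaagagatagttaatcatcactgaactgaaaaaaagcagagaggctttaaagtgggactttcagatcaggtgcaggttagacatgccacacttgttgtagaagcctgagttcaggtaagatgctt
The match began 62 bases upstream of the start on which the window is built in Abcb11 and 87 bases upstream in Slco1b2. In Slco1b2 that start lies inside the gene span given above, so the match is nearer to the first base of the span. The relaxed repeat occurred in 2 of the 9 members with a window and in 0.676% of all 32851 windows. The stricter form GGTCANTGACC occurred in 0.0396% of all windows and in 0 members. The single site AGGTCA, searched on both strands, occurred in 7 of the 9 members and 16.3% of all windows, and in Abcb11 and Slco1b2 it overlapped the repeat. The members with the repeat had unlike values. Abcb11 fell with HDCA, and the log2 fold change of Slco1b2 against HFD was 0.00 with a 95% interval of -0.39 to 0.40.

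Levels of different genes were compared per transcript length, as FPKM in the authors' Cufflinks tables. In ND the order was Slco1b2 at 367 FPKM, Slc10a1 at 245, Abcb11 at 130, Slco1a1 at 112, Abcc2 at 75.0, Abcc3 at 49.7, Slco1a4 at 12.0, Abcc4 at 0.699 and Ostb at 0.538, with Osta listed at 0. The ND libraries of neighbours in this order overlapped for Abcb11 with Slco1a1 and for Abcc4 with Ostb, and those of the other neighbouring pairs did not. In HFD the first 7 places were the same, the libraries of Slco1a1 and Abcc2 overlapped, and Ostb at 1.41 FPKM stood above Abcc4 at 0.463. In HFD_HDCA Slco1b2 and Slc10a1 still led at 411 and 311 FPKM, Slco1a1 followed at 117, and Abcc2 came next. Abcb11 then stood at 51.9 FPKM between Abcc2 at 54.8 and Abcc3 at 45.9, and its libraries overlapped those of both neighbours. Computed from the counts and the annotated exon length instead, Abcb11 in HFD_HDCA was at 68.1 RPKM, above Abcc3 at 56.2 and Abcc2 at 47.6. The members with a mean of 10 FPKM or more numbered 7 in ND and 6 in each of HFD and HFD_HDCA, the difference being Slco1a4. Its libraries lay on both sides of that level in ND, at 12.0, 17.4 and 6.43 FPKM, and in HFD, at 13.7, 8.00 and 6.03.

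**Figure D2:**
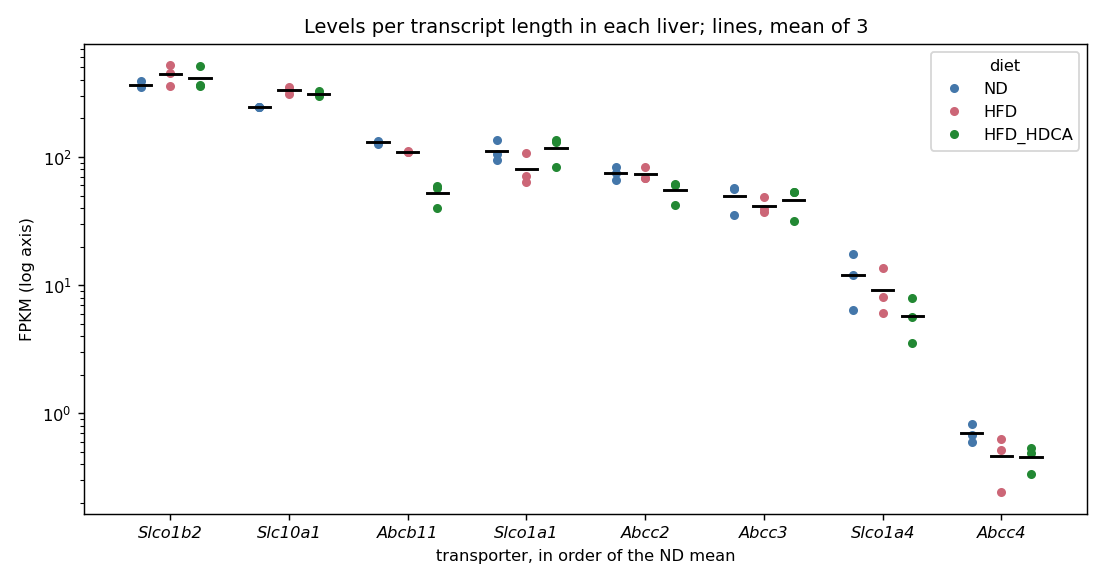
Level per transcript length (y axis, FPKM on a log axis) of 8 transporters in each of the 9 livers, in order of the ND mean, with lines at the mean of each diet. Abcb11 drops from 130 FPKM in ND to 51.9 in HFD_HDCA, the range of Abcc2 and Abcc3; Osta and Ostb are not drawn because some libraries are listed at 0.

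In the canalicular membrane, Abcb11 stood at 921, 854 and 949 CPM in the ND libraries. In HFD it stood at 707, 733 and 692 CPM, and in HFD_HDCA at 292, 382 and 415 CPM. The diets formed 3 separate ranges, with each HFD_HDCA library below each HFD library and each HFD library below each ND library. The mean was 908 ± 48.9 CPM in ND, 711 ± 20.4 in HFD and 363 ± 63.5 in HFD_HDCA (SD, n = 3 each). Against HFD, HFD_HDCA was 1.96-fold lower, a log2 fold change of -0.97 ± 0.14 (SE) with a 95% interval of -1.28 to -0.65 and an edgeR adjusted p of 0.00825. Against ND it was 2.50-fold lower, at -1.32 ± 0.14 (SE) with a 95% interval of -1.64 to -1.01 and an edgeR adjusted p of 0.00146. The difference between HFD and ND did not pass, at -0.35 ± 0.14 (SE) with a 95% interval of -0.66 to -0.04 and an edgeR adjusted p of 0.361. In bulk liver, fewer cells of a type and less RNA per cell cannot be told apart.

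The lowest Abcb11 value was in HFD_HDCA 1, the library with the high acute phase genes. Without that library the log2 fold change against HFD was -0.82 with an edgeR adjusted p of 0.00686, and against ND it was -1.19 with an edgeR adjusted p of 0.00124. In both comparisons the fall passed whichever of the 9 libraries was left out. Of the exonic bases of Abcb11, 136 also lie in the antisense gene Gm13613 on the opposite strand, and the strand setting of the counting was not stated beyond the word antisense.

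Abcc2, on chromosome 19 from 43782308 to 43838332, had 579, 627 and 524 CPM in ND, 581, 507 and 477 in HFD, and 341, 456 and 465 in HFD_HDCA. Each HFD_HDCA library lay below each HFD and each ND library, while the ND and HFD libraries overlapped. The log2 fold change was -0.31 ± 0.15 (SE) against HFD, with an edgeR adjusted p of 0.254, and -0.46 ± 0.15 (SE) against ND, with an edgeR adjusted p of 0.0948. DESeq2 called the difference from ND, with an adjusted p of 0.0278. As with Abcb11, the lowest library was HFD_HDCA 1, and without it the value against HFD was -0.17 with an edgeR adjusted p of 0.509. The part of the acute phase genes in these values was not tested beyond leaving out that library.

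**Figure D3:**
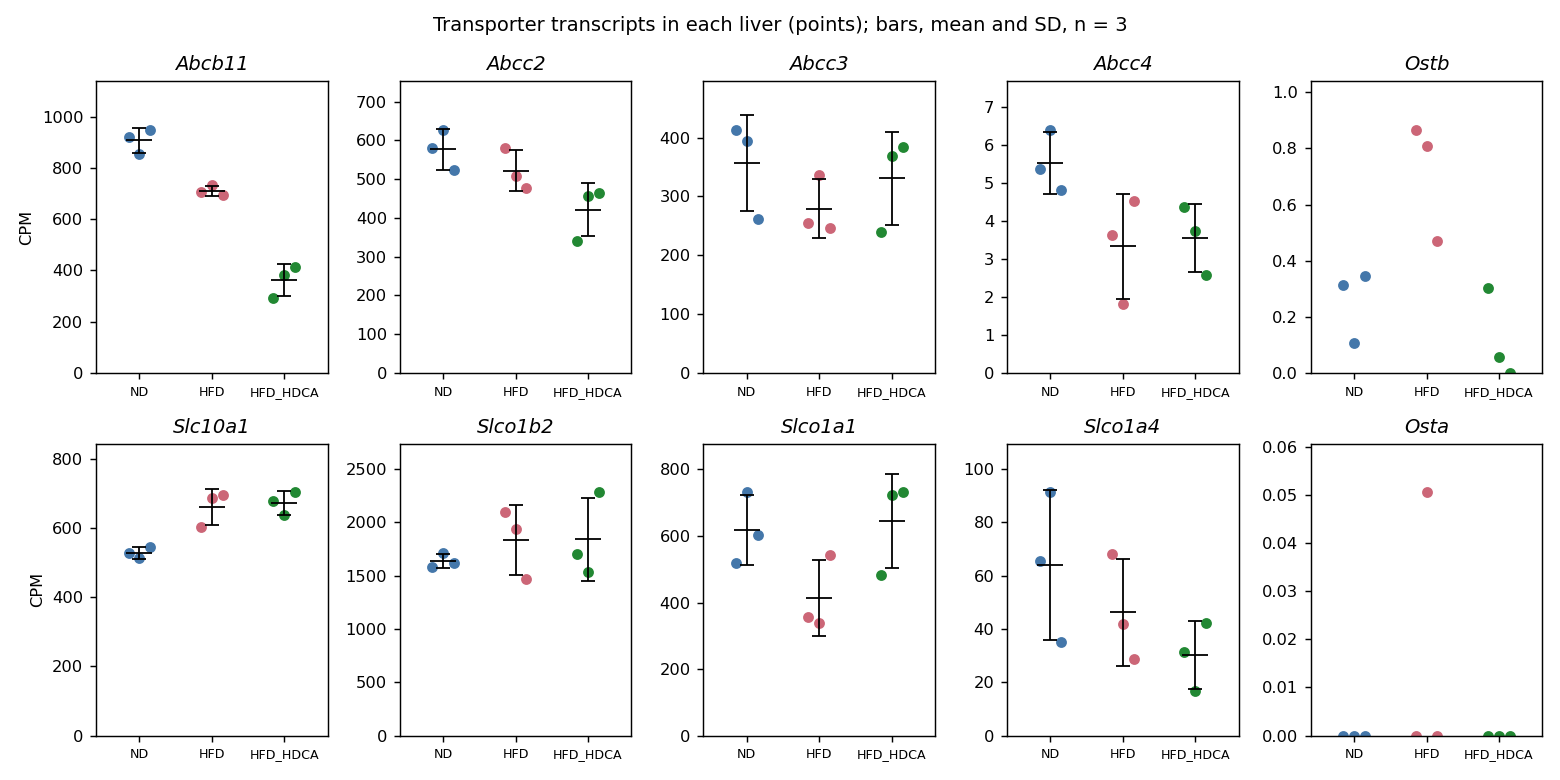
CPM (y axes from 0, scaled per gene) of the 10 transporters in each liver, with points for libraries and, except for Osta and Ostb, bars for mean and SD of 3. The 3 diets separate fully for Abcb11, at 854 to 949, 692 to 733 and 292 to 415 CPM, and the diets overlap in at least 1 comparison for each of the other transporters.

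Among the basolateral exporters, Abcc3, on chromosome 11 from 94343295 to 94393017, encodes MRP3, a carrier of glucuronides and bile salts. It had 414, 394 and 262 CPM in ND, 255, 337 and 246 in HFD, and 240, 368 and 385 in HFD_HDCA. Each diet held at least 1 library at 262 CPM or lower and at least 1 at 337 or higher, so the groups overlapped in all 3 comparisons. The log2 fold changes ran from -0.35 to 0.25 and did not pass, with edgeR adjusted p of 0.551 to 0.786. The nuclear receptor CAR is a known inducer of this gene. Of 8 reporter genes of CAR and PXR, 2 fell and 0 rose in HFD against ND, where 0.477% of all genes tested fell. In HFD_HDCA against HFD 1 fell, Cyp2c29 (edgeR adjusted p = 0.0280), and 0 rose, where 1.73% of all genes fell. In HFD_HDCA against ND 4 fell and 0 rose, where 2.82% of all genes fell. Cyp3a11, the major drug-metabolising cytochrome among them, fell from 5306 ± 960 CPM in ND to 951 ± 217 in HFD (SD, n = 3 each, edgeR adjusted p = 0.0232). The part of these reporters in the values of Abcc3 and Slco1a4 was not tested.

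Abcc4, on chromosome 14 from 118482692 to 118707856, encodes MRP4, which exports bile acids together with glutathione and is induced in cholestatic rodent liver. It was low throughout, at 5.36, 6.40 and 4.80 CPM in ND, 3.63, 1.82 and 4.53 in HFD, and 4.36, 3.72 and 2.59 in HFD_HDCA. Each ND library lay above each library of the other 2 diets, and those 2 diets overlapped. The log2 fold change was -0.73 ± 0.31 (SE) for HFD against ND and -0.63 ± 0.32 (SE) for HFD_HDCA against ND, with edgeR adjusted p of 0.401 and 0.229. Against HFD it was 0.10 ± 0.32 (SE) in HFD_HDCA, with a 95% interval of -0.61 to 0.81, and the sign turned without HFD 2 and without HFD_HDCA 1.

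The heterodimer of Osta and Ostb was barely detected, and in the fit of all 9 libraries the low-count filter left out both. Osta, on chromosome 16, had 1 read in all 9 libraries together, in HFD 2, and shares 567 exonic bases with Pcyt1a on the opposite strand. Ostb, on chromosome 9, shares 91 exonic bases with Rasl12 on the opposite strand. It had 6, 2 and 6 reads in ND, 16, 16 and 9 in HFD, and 5, 1 and 0 in HFD_HDCA. Each HFD library lay above each library of the other diets, while ND and HFD_HDCA overlapped. Scaled to library size, the pooled reads gave HFD 2.80 times the level of ND, with a 95% counting interval of 1.50 to 5.56. HFD_HDCA was 5.99-fold lower than HFD, with a 95% counting interval of 2.53 to 17.3, on 6 against 41 reads. Of those 6 reads 5 were in HFD_HDCA 1, and without that library the pooled ratio to HFD was 0.0414 in place of 0.167, with a 95% counting interval of 0.00102 to 0.244, on 1 against 41 reads. These intervals cover counting error only and compare these libraries, not the diets. With no filter, the edgeR adjusted p of Ostb was 0.527 for HFD against ND and 0.101 for HFD_HDCA against HFD. For HFD_HDCA against HFD it was 0.0411 in the filtered fit without HFD_HDCA 1, where Ostb passed the filter. By limma on filtered log2(FPKM + 1) it was 0.0376. The other fits that held Ostb did not call it in this comparison. Limma gave an adjusted p of 0.0621 on log2(FPKM + 0.1) and 0.0659 on log2(FPKM + 1) with no filter. The other edgeR fits without a library that kept Ostb gave 0.125 to 0.222.

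Among the uptake carriers, Slc10a1, on chromosome 12 from 80953185 to 80968705, had 527, 513 and 546 CPM in ND, 603, 687 and 697 in HFD, and 678, 637 and 704 in HFD_HDCA. Each library of both high-fat diets lay above each ND library, and the 2 high-fat diets overlapped. The coefficient of variation within a diet was 3.12 to 7.82%, against 42.2 to 43.9% for Slco1a4. The log2 fold change was 0.33 ± 0.11 (SE) for HFD against ND and 0.35 ± 0.11 (SE) for HFD_HDCA against ND, with edgeR adjusted p of 0.279 and 0.0919. DESeq2 called both, with adjusted p of 0.0462 and 0.00998. Against HFD the value in HFD_HDCA was 0.02 ± 0.11 (SE), with a 95% interval of -0.23 to 0.27.

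Slco1b2, encoding the mouse OATP nearest to the human liver OATPs, is the most abundant member. It had 1581, 1714 and 1616 CPM in ND, 2098, 1937 and 1471 in HFD, and 1706, 1530 and 2280 in HFD_HDCA. The ND libraries lay close together, and the other diets held values on both sides of them. The log2 fold changes were 0.16, 0.00 and 0.17 for HFD against ND, HFD_HDCA against HFD and HFD_HDCA against ND, with edgeR adjusted p of 0.581 to 0.995.

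Slco1a1, on chromosome 6 from 141907281 to 141946962, encodes an OATP that is typical of male mouse liver. It had 520, 731 and 602 CPM in ND, 358, 338 and 544 in HFD, and 482, 724 and 731 in HFD_HDCA. The HFD group held the lowest values but overlapped both other groups through HFD 3. The log2 fold change was -0.58 ± 0.23 (SE) for HFD against ND and 0.64 ± 0.23 (SE) for HFD_HDCA against HFD, with edgeR adjusted p of 0.347 and 0.137. HFD_HDCA against ND gave 0.06, with a 95% interval of -0.43 to 0.56. Of 14 genes typical of male liver, 10 fell and 0 rose in HFD against ND, where 0.477% of all genes fell. In HFD_HDCA against HFD 2 rose and 0 fell, where 1.67% of all genes rose, and in HFD_HDCA against ND 6 fell and 0 rose, where 2.82% of all genes fell. Their summed level was 17456 to 27323 CPM in ND, 6556 to 8592 in HFD and 10778 to 28348 in HFD_HDCA, and their part in the values of Slco1a1 was not tested.

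Slco1a4, its neighbour on chromosome 6 from 141805438 to 141856284, encodes an OATP that takes up digoxin and is induced through PXR. It had 65.6, 91.3 and 35.1 CPM in ND, 68.1, 41.9 and 28.9 in HFD, and 31.3, 16.9 and 42.3 in HFD_HDCA. The groups overlapped in all 3 comparisons. The log2 fold change was -1.09 ± 0.46 (SE) for HFD_HDCA against ND, with an edgeR adjusted p of 0.180, and DESeq2 called it with an adjusted p of 0.0476. Of the 50-base stretches of the transcripts, 2.26% for Slco1a1 and 2.73% for Slco1a4 are shared with other genes of the cluster. The share was 0.163% for Abcc2 and 0 for the other 7 members. A small part of the reads of Slco1a1 and Slco1a4 could therefore lack a unique alignment. Such reads, over all genes 13.3 to 19.4% of a file, stayed out of the counts.

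Within a liver, uptake and export transcripts were compared by the ratio of FPKM of Slc10a1 to Abcb11. This ratio is of RNA levels, not of transport. It was 1.85, 1.95 and 1.87 in ND, 2.75, 3.04 and 3.26 in HFD, and 7.52, 5.42 and 5.50 in HFD_HDCA. The diets did not overlap, and the mean went from 1.89 ± 0.0510 in ND to 3.01 ± 0.256 in HFD and 6.15 ± 1.19 in HFD_HDCA (SD, n = 3 each). The ratio of Slco1b2 to Abcb11 was likewise 2.84 ± 0.263, 4.03 ± 0.661 and 8.04 ± 1.55 (SD, n = 3 each). The ratio of the canalicular pair, Abcb11 to Abcc2, was 1.76, 1.50 and 1.99 in ND, 1.35, 1.59 and 1.59 in HFD, and 0.941, 0.917 and 0.983 in HFD_HDCA. Which of the pair was higher in HFD_HDCA depended on the length scaling. By RPKM from the counts and annotated exon length, a scaling added after seeing the data, the ratio was 2.26 to 3.01 in ND, 2.02 to 2.41 in HFD and 1.39 to 1.48 in HFD_HDCA, so Abcb11 stayed above Abcc2 in each library. HFD_HDCA was the lowest group on both scales. The ratio of Slc10a1 to Abcb11 by RPKM was 1.34 to 1.41 in ND, 1.99 to 2.36 in HFD and 3.90 to 5.43 in HFD_HDCA. The ratio of Slco1b2 to Slc10a1 overlapped between the diets, at means of 1.50, 1.35 and 1.32. The ratios were chosen with the values known. The exact two-sided permutation test of 3 libraries against 3 cannot go below p = 0.1. Of 15 such tests over 5 ratios, those of groups that did not overlap had an exact p of 0.1, or 0.188 adjusted over the 15.

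**Figure D4:**
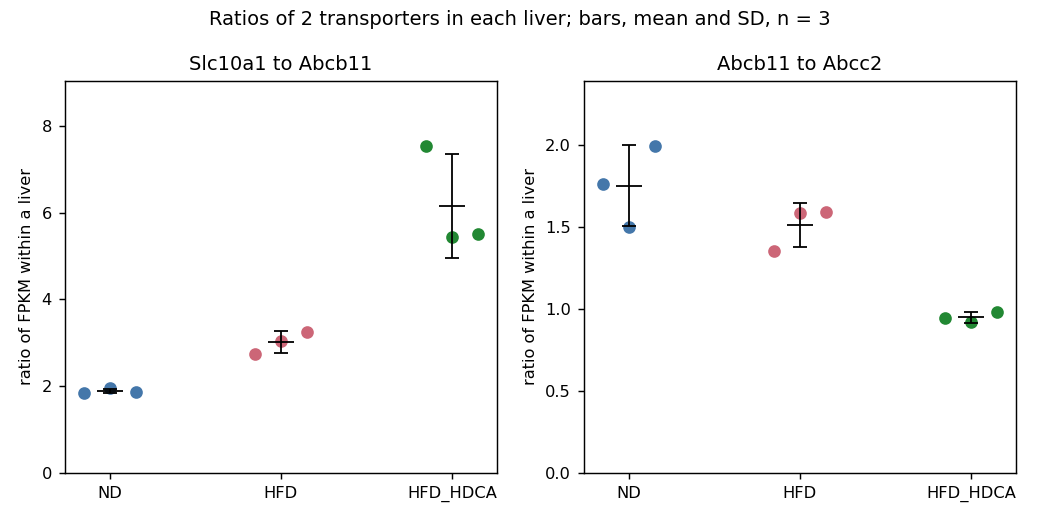
Ratio of FPKM within each liver (y axes from 0) for Slc10a1 to Abcb11 and for Abcb11 to Abcc2, with points for libraries and bars for mean and SD of 3 per diet. The first ratio is 1.85 to 1.95 in ND and 5.42 to 7.52 in HFD_HDCA, and the second is 0.917 to 0.983 in HFD_HDCA, where RPKM from the counts gives 1.39 to 1.48.

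Other transport genes, listed as canalicular, basolateral export or uptake, were read from a list of 36, of which 27 were tested. Bulk liver does not show which cell type expresses each of them. In HFD_HDCA against HFD 5 of the 27 fell and 0 rose, where 1.73% of all genes tested fell and 1.67% rose. The median log2 fold change was -0.36, and -0.00 over all genes. Atp8b1, the canalicular phospholipid flippase whose loss causes cholestasis in humans, fell from 52.1 ± 1.79 to 28.5 ± 2.78 CPM (SD, n = 3 each, edgeR adjusted p = 0.00341). Slc22a7, encoding the organic anion carrier OAT2, fell from 37.0 ± 10.8 to 9.66 ± 1.93 CPM (SD, n = 3 each, edgeR adjusted p = 0.0118). Abca1, the cholesterol and phospholipid exporter, fell from 206 ± 2.29 to 140 ± 3.60 CPM (SD, n = 3 each, edgeR adjusted p = 0.0140). Abcb1a, encoding a P-glycoprotein, and Slc22a28, of the organic anion carrier family, fell from 3.70 to 1.40 and from 10.5 to 5.24 CPM, with edgeR adjusted p of 0.0392 and 0.0426. The call of Atp8b1 passed in all 9 fits without a library. Those of Abca1 and Slc22a7 were lost without HFD_HDCA 3, with edgeR adjusted p of 0.0607 and 0.0505. Abcb1a passed only without HFD_HDCA 1 and Slc22a28 only without HFD 1, with edgeR adjusted p up to 0.127 and 0.126 in the other fits.

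Against ND, 6 of the 27 fell in HFD_HDCA and 0 rose, where 2.82% of all genes fell and 3.65% rose. The median log2 fold change was -0.08, and 0.03 over all genes. They were Atp8b1, Abca1, Slco2a1, Slc22a7, Slc22a28 and Slc22a30, with edgeR adjusted p from 0.00154 to 0.0149. The call of Slc22a7 was lost without ND 1 and without HFD_HDCA 3, with edgeR adjusted p of 0.0582 and 0.0606. Abcb4, the phosphatidylcholine floppase that protects bile ducts from bile salts, was at 503 ± 85.0 CPM in HFD_HDCA and 309 ± 38.8 in ND (SD, n = 3 each, edgeR adjusted p = 0.0568). In HFD against ND, 1 of the 27 rose and 1 fell, where 0.477% of all genes did so in each direction. The median log2 fold change was -0.04, and 0.02 over all genes. Slco2a1, a prostaglandin carrier, fell from 112 ± 6.34 to 42.5 ± 5.43 CPM (SD, n = 3 each, edgeR adjusted p = 0.00403). Slc22a27, an organic anion carrier, rose from 0.471 ± 0.390 to 8.82 ± 1.85 CPM (SD, n = 3 each, edgeR adjusted p = 0.0236). The call of Slc22a27 was lost without ND 1, ND 3, HFD 2 or HFD 3, with edgeR adjusted p of 0.0631 to 0.126.

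**Figure D5:**
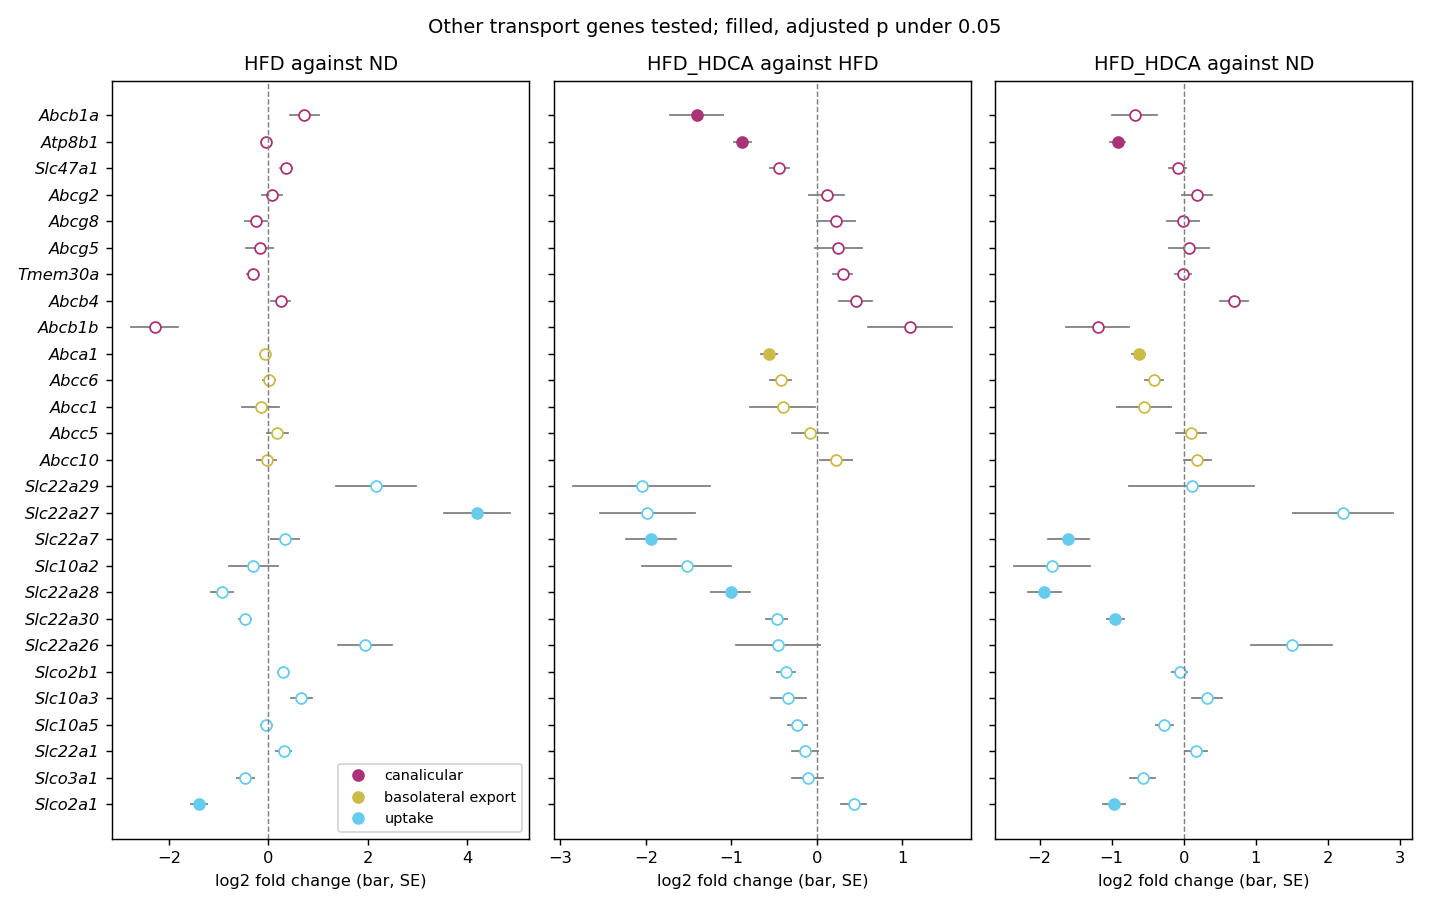
Log2 fold change (x axes) with SE of the 27 other transport genes tested, in the 3 comparisons. Colours mark the list group (canalicular, basolateral export or uptake), and points are filled where the adjusted p was under 0.05. In HFD_HDCA against HFD the 5 filled points, from Abca1 at -0.56 to Slc22a7 at -1.94, all lie below 0.

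Of 18 regulators of these genes, 17 were tested. In HFD_HDCA against ND 2 rose and 2 fell, where 3.65% of all genes rose and 2.82% fell. Nr1h4, encoding FXR, rose from 103 ± 14.8 to 169 ± 12.6 CPM (SD, n = 3 each, edgeR adjusted p = 0.0202), the opposite direction to Abcb11. Nr1i3, encoding CAR, rose from 134 ± 11.7 to 272 ± 32.7 CPM (SD, n = 3 each, edgeR adjusted p = 0.0149). Hnf4a, a hepatocyte identity factor, fell from 746 ± 35.2 to 535 ± 54.5 CPM, and Fgfr4, the receptor for the ileal hormone FGF15, fell from 47.3 ± 2.14 to 32.9 ± 2.35 CPM (SD, n = 3 each, edgeR adjusted p = 0.0431 and 0.0379). In HFD_HDCA against HFD Fgfr4 was the single regulator that passed, falling from 51.1 ± 8.44 CPM (SD, n = 3, edgeR adjusted p = 0.0281), and in HFD against ND 0 passed. Nr0b2, encoding SHP, a repressor induced by FXR, was at 46.8 ± 13.7, 43.5 ± 5.64 and 32.0 ± 14.8 CPM in ND, HFD and HFD_HDCA (SD, n = 3 each) and did not pass. The calls of Nr1h4 and Nr1i3 were lost without ND 1, ND 2 or HFD_HDCA 3, with edgeR adjusted p up to 0.103 and 0.0794. Against ND, Hnf4a passed only without HFD 1 or HFD_HDCA 2, and Fgfr4 only without HFD 1, HFD 2 or HFD_HDCA 2, with edgeR adjusted p up to 0.150 and 0.129 in the other fits. Against HFD, Fgfr4 was lost without ND 1, ND 2, HFD 2, HFD 3 or HFD_HDCA 3, with edgeR adjusted p up to 0.0742.

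The genes whose log2 CPM was most like that of Abcb11 over the 9 libraries, among 8903 candidates, were Zcchc9, Arhgef26 and Cyp26a1, with Pearson r of 0.985, 0.984 and 0.980. The points share the libraries and the diet groups, and the genes were chosen for this pattern, so r and the levels are a description with no test. Cyp26a1, encoding the hydroxylase that clears retinoic acid, was at 23.0, 9.36 and 0.964 CPM in ND, HFD and HFD_HDCA. Arhgef26, a guanine nucleotide exchange factor, was at 34.9, 27.0 and 14.9 CPM in the same order. Zcchc9, a zinc finger gene, had a narrow range, at 11.5, 10.8 and 8.80 CPM.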

How the data were processed

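RNA from 9 livers, 3 per diet, was sequenced from TruSeq libraries, per the labels' protocols. The deposited count tables hold whole-number HTSeq counts per gene, per the file names, which carry the word antisense; the exact setting, the HTSeq version and the annotation are not given in the sources used here. The authors' Cufflinks tables hold FPKM, per the file headers. The genome build mm10 and the tools Cufflinks 2.0.2 and TopHat 1.3.2 are named, without their roles, in the submitters' processing notes.

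Counts were tested with edgeR 4.0.16 in R 4.3.3. The low-count filter (filterByExpr, minimum count 10) left 12587 genes, TMM factors scaled the libraries, and 1 model of all 9 libraries was tested by the robust quasi-likelihood F test. The p-values were two-sided and Benjamini-Hochberg adjusted over all genes tested, with a threshold of 0.05. CPM used TMM-scaled totals. Reads assigned to no gene, 27.9 to 36.1% of a file, stayed out. DESeq2 1.42.0 and limma 3.58.1 served as alternatives, with the others listed in the closing section. The test code was run on simulated data. Replicates differed beyond counting error (chi-square per degree of freedom 11.7 to 96.4).

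Promoter windows are RefSeq's for GRCm38.p6; 9 of the 10 members matched. Gene positions are also RefSeq's, while strands, exon lengths and shared exonic bases follow GENCODE on that assembly. Like-pattern genes were the 3 with the highest r among tested genes with a mean of at least 5 CPM, without Gm and Rik symbols. From the lists, called genes and up to 4 with the smallest p were named. The members and lists were chosen with earlier results of these data known.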

Additional observations from a re-analysis of the deposited data

How the results depend on the processing

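The fall of Abcb11 passed in all 18 alternatives, at -1.11 to -0.82 on the log2 scale against HFD (adjusted p 2.54e-09 to 0.0378) and -1.43 to -1.19 against ND (adjusted p 4.13e-18 to 0.00957). The transporters called numbered 1 in HFD against ND and 4 in HFD_HDCA against ND with DESeq2 (Slc10a1 up, and Abcb11, Abcc2 and Slco1a4 down). They numbered 2 in HFD_HDCA against HFD, with Ostb added, by limma on log2(FPKM + 1) with the filter. Over the fits without a library they numbered 0 to 0, 1 to 2 and 1 to 1 in the order HFD against ND, HFD_HDCA against HFD, HFD_HDCA against ND. The cause of these differences was not tested.

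All genes called numbered 120, 428 and 815 in that order. DESeq2 called 380, 1085 and 1398. Without both HFD 1 and HFD_HDCA 1 they were 576 and 977 in the first and second comparisons. Log2(FPKM + 1) with no filter gave 273 in the second and 527 in HFD_HDCA against ND, and the second comparison's own 6 libraries alone gave 134. With a filter, log2(FPKM + 1) split the second as 145 higher and 383 lower, against 210 and 218. Without a library the counts ran from 32 (ND 3) to 226 (HFD 1), 127 (HFD_HDCA 3) to 672 (HFD 1), and 196 (ND 1) to 1213 (HFD_HDCA 2).

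Of the recomputed values of single transporters, 404 kept their direction and side of the threshold and 24, none of them called, changed sign near 0. In HFD_HDCA against HFD, Abcc4 was -0.0019 by log2(FPKM + 1) with and without the filter, and -0.20 to 0.39 without a library. Slc10a1 was -0.090 in the 3 FPKM fits, -0.026 without both libraries, and -0.041 to 0.081 without a library. Slco1b2 was -0.11 in the 3 FPKM fits, -0.012 with 2 groups only, -0.00034 with the replicate block, and -0.18 to 0.14 without a library. In HFD_HDCA against ND, Abcc3 was 0.074 without both libraries and -0.29 to 0.074 without a library, Slco1a1 -0.047 to 0.23 and Slco1b2 -0.019 to 0.29 without a library.

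Over all genes tested, same-numbered libraries did not deviate together (r of -0.15 to 0.15), and the numbers were not taken to pair samples. Some clock genes did follow the number, with the highest Dbp and the lowest Arntl of each diet in replicate 1. What the numbers share was not tested beyond the replicate block. The replicate block gave 82, 328 and 715 genes and 0, 1 and 1 transporters, and changed no transporter call. Other transport, regulator and like-pattern genes were recomputed by alternatives added after seeing the data. Beyond the fits without a library, calls were lost for Abcb1a by FPKM (-0.25 on the log2(FPKM + 1) scale, adjusted p 0.165), with 2 groups only for Abcb1a, Abca1, Slc22a28 and Fgfr4 against HFD (adjusted p 0.0689 to 0.114), by unfiltered FPKM for Slc22a27 (1.14, adjusted p 0.0553), Slc22a28 against HFD, Hnf4a and Fgfr4 against ND (adjusted p 0.0575 to 0.0729), and for Hnf4a also with no filter and with the block (adjusted p 0.0551 and 0.0677). Depth limits Ostb and Osta, which had 61 reads and 1 read in all.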
